A study of Mus musculus with 12 samples.

Results

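The chaperonin CCT, also called TRiC, was followed through its 8 subunit genes, Tcp1, Cct2, Cct3, Cct4, Cct5, Cct6a, Cct7 and Cct8, in mouse livers and liver tumors. The members were the rows of the count table whose Entrez identifiers map to these symbols, 8 of 26301 genes in all, and all 8 passed the filter on low counts. Poly(A) RNA had been sequenced from 12 samples of mice bred into the FVB strain, all labelled adult and collected in a study that followed ageing mice to the end of life. There were 4 livers without tumor from age-matched wild-type mice (control), 4 spontaneous liver tumors from mice labelled Alb-Cre-E2f7 E2f8 knockout (DKO), and 4 spontaneous liver tumors from mice labelled Alb-Cre-Rb1 E2f7 E2f8 knockout (TKO). The tumor mice carry Cre recombinase under the albumin promoter, which the study describes as hepatocyte-specific, so cells of a tumor in which it does not act keep the genes. Each comparison with control livers sets tumor against non-tumor tissue as well as mutant against wild type. E2f7 and E2f8 encode atypical E2F repressors and Rb1 encodes the retinoblastoma protein. The question was whether the transcripts of the chaperonin move together with those of the tubulins that it folds.

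CCT is a cytosolic folding machine made of stacked rings, each assembled from the 8 different but related subunits, and it closes over its client with energy from ATP. Actins and tubulins depend on it, as do many proteins built from WD40 repeats, among them the mitotic activator Cdc20. Prefoldin hands newly made chains to the chaperonin, and tubulin cofactors take folded tubulin onward into the α/β dimer. In a cell that divides, tubulin is needed for the spindle.

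The total count per library lay between 9165812 and 16424973, and albumin took 4.82% to 22.7% of it. Each subunit had 616 to 3959 counts in every library. The 10 hepatocyte markers summed to 65042 to 340845 CPM (counts scaled to library size with edgeR's TMM factors). Albumin was most of this sum, at 37568 CPM in TKO tumor 4, the lowest, and 286273 CPM in DKO tumor 1, the highest. Single markers differed: Cps1 was at 810 CPM in DKO tumor 4 and 453 CPM in TKO tumor 4, against 2852 to 4727 CPM in control livers. Log2 fold changes were above 0 for 6 of 10 markers in DKO tumors and 4 of 10 in TKO tumors, and edgeR called 0. DESeq2 called 1 marker, Ttr, lower in DKO tumors (log2 fold change -0.87, adjusted p = 0.0491), where it called 10.4% of all genes. The DESeq2 share was 3.49% in TKO tumors and 0.398% between the tumor genotypes. The 10 proliferation markers summed to 10.7 to 24.2 CPM in control livers, 30.3 to 130.04 CPM in DKO tumors and 16.3 to 78.1 CPM in TKO tumors, and the 6 cholangiocyte markers to 30.6 to 52.2, 74.8 to 123 and 33.1 to 63.9 CPM. Marker sums of endothelial cells, macrophages, stellate cells and lymphocytes overlapped between control livers and DKO tumors and between control livers and TKO tumors, and no marker was at 0 in all libraries. Of the targeted genes, counted over the whole gene so that undeleted exons are included, edgeR called 0 of 3 in every comparison. At an unadjusted p under 0.05 edgeR gave 1 in DKO tumors (24% of all genes), 2 in TKO tumors (16.3%) and 1 between them (9%). Rb1 was lower in all TKO tumors than in all DKO tumors (log2 fold change -1.01, edgeR adjusted p = 0.281) and all control livers (-0.90, edgeR adjusted p = 0.122), and DESeq2 called both differences (adjusted p = 0.00731 and 0.00991). E2f8 went the other way from its label, at 4.52 to 8.97 CPM in control livers, 7.59 to 45.6 CPM in DKO tumors and 12.3 to 52.2 CPM in TKO tumors, the TKO values without overlap. Its log2 fold changes were 1.72 and 2.08 (edgeR adjusted p = 0.103 and 0.146), and DESeq2 called E2f8 higher in both (adjusted p = 0.0282 and 0.0155). E2f7 had 4 to 24 counts per library and was called by neither tool, so these whole-gene counts do not show the deletion of E2f7 or E2f8.

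None of the 8 subunits passed the test in any comparison. In DKO tumors against control livers 0 of 8 had an adjusted p under 0.05 by the quasi-likelihood test of edgeR (Benjamini-Hochberg over 13882 genes), where 2.42% of all genes tested were called. The counts were 0 of 8 in TKO tumors against control livers, with 0.0864% of all genes called, and 0 of 8 between TKO and DKO tumors, with 0% called. DESeq2, the tool of the study's methods, likewise gave 0 of 8 in each comparison, with lowest adjusted p of 0.127, 0.332 and 0.612, where it called 10.4%, 3.49% and 0.398% of all genes to which it gave an adjusted p. At an unadjusted p under 0.05 edgeR gave 2 of 8 subunits in DKO tumors (24% of all genes), 0 of 8 in TKO tumors (16.3%) and 0 of 8 between the tumor genotypes (9%). The data do bound the changes: over the 8 subunits the 95% intervals of the fold ran from 0.813 to 1.66 in DKO tumors, from 0.726 to 1.63 in TKO tumors and from 0.681 to 1.30 between them. A change of CCT transcripts of up to 1.66-fold is therefore inside what these libraries allow, and a change as large as the 6.995-fold difference of the tubulin Tubb2a in DKO tumors is outside it.

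The estimates for the subunits in DKO tumors were small and above 0. Their log2 fold changes against control livers were above 0 for 8 of 8 (51.6% of all genes), with a median of 0.14 against 0.02 for all genes. The 8 values come from the same libraries and are not independent of each other. Leaving out 1 library brought Tcp1 to -0.016 (without DKO tumor 2) and Cct6a to -0.022 (without control 2). In TKO tumors 5 of 8 were above 0 (52.5% of all genes) with a median of 0.06, but under scaling by total counts alone, which moves the median of all genes from 0.02 to 0.17, this became 8 of 8. Between TKO and DKO tumors 2 of 8 were above 0 (51.2% of all genes) with a median of -0.11, and total counts made it 3 of 8. The size of the changes was smaller than in a typical gene: the median absolute log2 fold change of the 8 was 0.14, 0.11 and 0.11 in the 3 comparisons, against 0.30, 0.24 and 0.21 over all genes tested and 0.25, 0.21 and 0.18 over 2112 other genes with mean levels of 50 to 300 CPM. In bulk tissue a lower level from fewer cells of a type cannot be told apart from less RNA per cell.

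**Figure D1:**
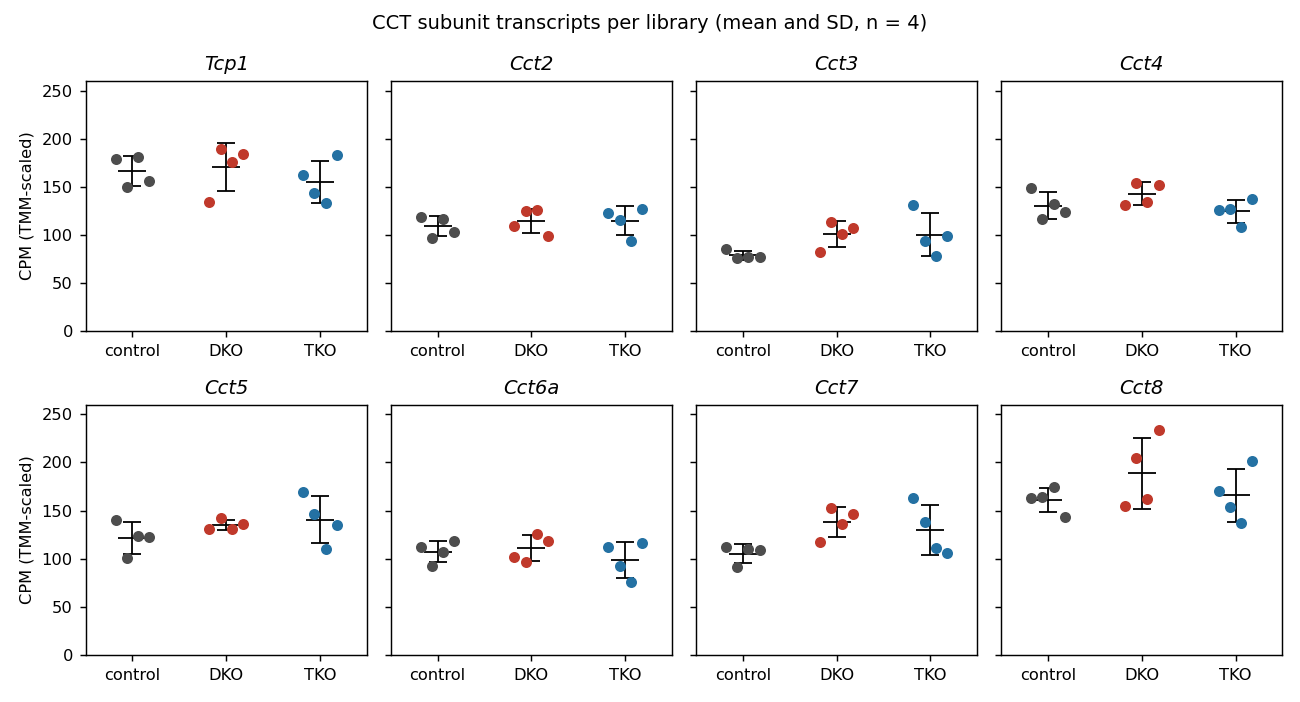
Each panel plots 1 subunit, with the level in CPM (TMM-scaled, linear axis from 0) in 4 control livers, 4 DKO tumors and 4 TKO tumors, and with the mean and SD in black. The DKO points of Cct7 all lie above its control points, and every other panel shows overlapping groups.

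Cct7, which encodes the eta subunit, had the lowest adjusted p of the 8 in DKO tumors. It stood at 112, 91.0, 109.8 and 109 CPM in control livers, at 117, 153, 136 and 146 CPM in DKO tumors, and at 163, 139, 111 and 106 CPM in TKO tumors. Every DKO tumor was above every control liver, while TKO tumors 3 and 4 fell inside the control range. Cct7 was the only subunit of 8 without overlap between DKO tumors and control livers, where the groups of 16.2% of all genes did not overlap and 8.87% were without overlap and higher, and 0 of 8 lacked overlap in the other comparisons (7.67% and 4.87% of all genes). Its log2 fold change in DKO tumors was 0.39 (SE 0.16, 95% interval 0.04 to 0.73, adjusted p = 0.160 from edgeR), or 1.31-fold, and for Cct7 by itself the exact permutation test (two-sided) gave p = 0.0286, the smallest that 4 against 4 libraries allow. In TKO tumors it was 0.30 (SE 0.16, adjusted p = 0.375 from edgeR). Both contrasts use the same 4 control livers, and without control 2, the lowest of them, the DKO value was 0.32. The proliferation and cholangiocyte marker sums were also higher in all DKO tumors than in all control livers, and their part in the Cct7 difference was not tested. The separation of the cholangiocyte sum rested on Prom1 (1.97 to 3.56 CPM in control livers and 10.5 to 63.5 CPM in DKO tumors), without which the sums overlapped at 28.6 to 49.4 and 24.4 to 108 CPM. The proliferation sum stayed without overlap when any 1 of its 10 genes was left out. Cct7 lies on chromosome 6 from 85401499 to 85418471 (mm9, plus strand, Entrez 12468) and shares 214 exon bases with 1700040I03Rik on the opposite strand. Whether reads were counted by strand is not given in the sources used here.

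Cct3, the gamma subunit gene, had the log2 fold change next to that of Cct7 in DKO tumors and the highest of the 8 in TKO tumors. Its level was 86.0, 75.7, 76.8 and 77.2 CPM in control livers, 81.9, 114, 102 and 107 CPM in DKO tumors, and 132, 93.4, 78.1 and 98.5 CPM in TKO tumors. In each tumor group 3 of 4 libraries exceeded all control livers, and DKO tumor 1 and TKO tumor 3 lay within the control range. The log2 fold change was 0.36 in DKO tumors (SE 0.16, adjusted p = 0.206 from edgeR, exact permutation p = 0.0571) and 0.35 in TKO tumors (SE 0.16, adjusted p = 0.318 from edgeR, exact permutation p = 0.0571). TKO tumor 1 weighed on the second value, which was 0.18 without it. With the tumors of both genotypes pooled against the control livers, Cct3 differed by 0.35 (adjusted p = 0.165 from edgeR) and Cct7 by 0.34 (adjusted p = 0.164 from edgeR), and 0 of 8 subunits were called, with 2.48% of all genes called.

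Cct8, the theta subunit gene, was at 163, 164, 174 and 144 CPM in control livers, at 154, 205, 162 and 233 CPM in DKO tumors, and at 171, 154, 137 and 202 CPM in TKO tumors. DKO tumors 2 and 4 stood above all control livers and the other two within their range, so the groups overlapped. The log2 fold change was 0.23 in DKO tumors (SE 0.17, adjusted p = 0.444 from edgeR) and 0.042 in TKO tumors. Cct5, the epsilon subunit gene, known for a mutation in hereditary sensory neuropathy, was at 140.2, 100.3, 123 and 122 CPM in control livers, at 131, 142, 131 and 137 CPM in DKO tumors, and at 169, 146, 111 and 135 CPM in TKO tumors. Its DKO tumors were the most even group of any subunit, with a coefficient of variation of 3.92%, and lay within or just above the control range. The log2 fold changes of Cct5 were 0.15 (adjusted p = 0.571 from edgeR) and 0.21 (adjusted p = 0.526).

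Tcp1, the alpha subunit gene and the one from which the family took its name (t-complex protein), was at 179, 150.0, 181 and 156 CPM in control livers, at 134, 189, 176 and 185 CPM in DKO tumors, and at 162, 144, 133 and 183 CPM in TKO tumors. The groups overlapped throughout, with 1 DKO tumor and 2 TKO tumors below all control livers. Its log2 fold changes were 0.037 in DKO and -0.10 in TKO tumors, with adjusted p of 0.910 and 0.798 from edgeR. Tcp1 (mm9 chromosome 17, 13108567 to 13117933, plus strand) shares 571 exon bases with Acat3 and 141 with Mrpl18, both on the opposite strand. Over all libraries Acat3 had 94.5% as many counts as Tcp1, so the division of reads between the pair is uncertain.

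Cct4, the delta subunit gene, was at 149, 117, 132 and 124 CPM in control livers, 131, 154, 135 and 152 CPM in DKO tumors, and 126, 127, 108 and 138 CPM in TKO tumors. It had the lowest adjusted p of the 8 between the tumor genotypes, where TKO minus DKO was -0.20 on the log2 scale (SE 0.13, adjusted p = 0.654 from edgeR), and 3 of 4 TKO tumors lay below every DKO tumor. Cct2, the beta subunit gene, was at 119, 97.1, 117 and 103 CPM, 109, 125, 126 and 99.2 CPM, and 123, 115, 93.3 and 127 CPM in the same order of groups. Both tumor groups overlapped the control livers, and its log2 fold changes were 0.072, 0.074 and 0.0013 for DKO against control, TKO against control and TKO against DKO. Cct6a, the zeta subunit gene with the testis paralog Cct6b, was at 112, 92.1, 107 and 119 CPM, 102, 96.8, 125 and 119 CPM, and 112, 92.6, 75.4 and 116 CPM. TKO tumor 3 fell below the control range and DKO tumor 3 lay above it, and the log2 fold changes were 0.045, -0.12 and -0.16. Adjusted p for Cct2 and Cct6a lay between 0.766 and 0.998 (edgeR). Cct6b itself had 1 to 17 counts per library.

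**Figure D2:**
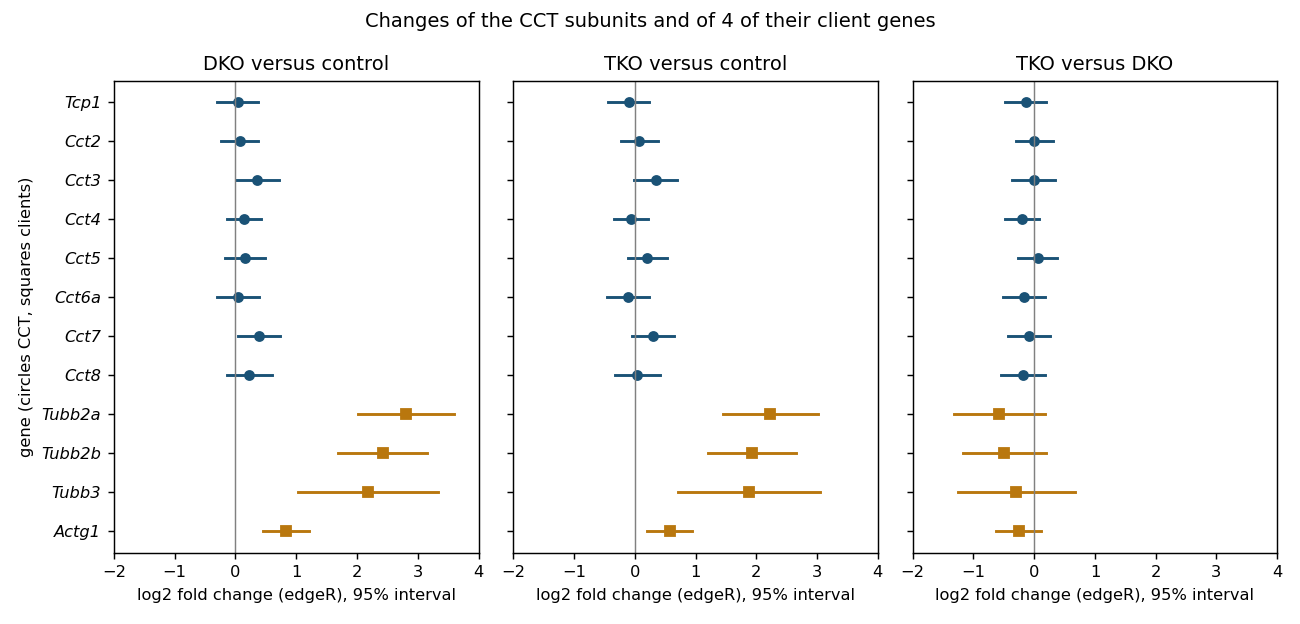
Points show log2 fold changes from edgeR with 95% intervals for the 8 subunits (circles) and for the tubulins and actin called in at least 1 comparison (squares), with 1 panel per comparison. Every subunit point lies between -0.20 and 0.39, and in DKO tumors the lower end of the Tubb2a interval (2.01) is above the upper end of each subunit interval.

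Some tubulins passed the test that no CCT subunit passed. By edgeR 2.42% of all genes were called in DKO and 0.0864% in TKO tumors. Of 15 tubulin genes tested, 3 rose in DKO tumors by edgeR, Tubb2a (log2 fold change 2.81, adjusted p = 0.0215), Tubb2b (2.43, adjusted p = 0.0215) and the very low Tubb3 (2.18, adjusted p = 0.0498, 1 to 18 counts per library), and 1 rose in TKO tumors, Tubb2a (2.23, adjusted p = 0.0499). These are β-tubulin isotypes, and Tubb2a and Tubb2b are near-identical paralogs between which reads may have been split. The median tubulin log2 fold change was 0.95 in each comparison with control livers, and 14 of 15 were above 0 in both under each of the 3 scalings tried, whereas the CCT medians were 0.14 and 0.06. The broadly expressed Tubb5 had values of 0.75 and 0.96 with adjusted p of 0.0521 and 0.0831 (edgeR). DESeq2, which called 10.4% of all genes in DKO and 3.49% in TKO tumors, called 10 of the 15 tubulins in DKO and 5 in TKO tumors, none of them lower. Averaged over the genes of each set, the tubulins stood at 2.82 to 3.24 log2 CPM in control livers, 3.68 to 4.36 in DKO tumors and 3.36 to 4.15 in TKO tumors, so that every tumor was above every control liver. The CCT subunits stood at 6.75 to 7.01, 6.89 to 7.16 and 6.70 to 7.16 log2 CPM, with the groups overlapping. The tubulin and CCT sets therefore differed in whether their ranges overlapped, and the difference between the sets was given no test. Of single genes, 16.2% did not overlap between DKO tumors and control livers and 7.67% between TKO tumors and control livers. The lowest tumor for the tubulins, TKO tumor 3, was at 3.36 against 3.24 in control 4. The tubulin mean includes Tuba8, at 15.9 and 37.6 CPM in DKO tumors 2 and 4 but 1.30 and 2.19 CPM in DKO tumors 1 and 3.

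Few other partners of the chaperonin passed the test. Among 50 tested genes of the prefoldin, cochaperone, tubulin cofactor, tubulin, actin and WD40 lists, 4 were called in DKO tumors, 1 in TKO tumors and 0 between the tumor genotypes by edgeR, all of them higher. Of all genes 2.42%, 0.0864% and 0% were called in these comparisons. These counts rested on single libraries: the DKO count was 0 without control 2, 3 or 4, 1 without DKO tumor 1 or 2, 2 without DKO tumor 4 or TKO tumor 1, 7 without DKO tumor 3 and 9 without TKO tumor 3, and the TKO count was 2 without DKO tumor 3, 6 without TKO tumor 3 and 0 without any other single library. Besides the 3 tubulins, the DKO count held Actg1, the cytoplasmic γ-actin, at 30.0 to 40.9 CPM in control livers and 47.6 to 81.7 CPM in DKO tumors (log2 fold change 0.83, SE 0.17, adjusted p = 0.0425 from edgeR). The TKO value of Actg1 was 0.57 (adjusted p = 0.158). Actb, the β-actin gene, had values of 0.30 and 0.41, and the actin-related Actr1a, Actr1b, Actr2 and Actr3 lay between -0.06 and 0.23. Of the WD40 clients 0 of 12 were called by edgeR. The highest values in DKO tumors were those of Cdc20 (1.13, adjusted p = 0.104 from edgeR), Gnb4 (0.78) and Fbxw7 (0.68), and the lowest those of Gnb2 (-0.25), Ppp2r2d (-0.18) and Fzr1 (-0.035). DESeq2, which called 10.4% of all genes in DKO tumors, called Cdc20 and Gnb1 there.

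The feeders and finishers of the pathway did not pass the test. EdgeR called 2.42% of all genes in DKO and 0.0864% in TKO tumors, so a count of 0 in lists this short is near that share. All 6 prefoldin genes, whose products form the complex that delivers actin and tubulin chains, missed it, with log2 fold changes in DKO tumors of -0.57 for Pfdn5, -0.49 for Pfdn4, -0.46 for Pfdn6, -0.31 for Pfdn1, -0.07 for Pfdn2 and 0.23 for Vbp1. The lowest adjusted p among them was 0.115 (edgeR), while limma-voom, which called 1804 of 13882 genes in DKO tumors, called Pfdn5 (-0.56, adjusted p = 0.0486). In TKO tumors the prefoldin median was -0.13, and under total counts 0.051. The tubulin cofactors Tbca, Tbcb, Tbcc, Tbcd and Tbce and the GTPase Arl2 had values from -0.43 (Tbcc) to 0.17 (Tbcb) in DKO tumors and from -0.17 (Tbca) to 0.20 (Tbcb) in TKO tumors, with 0 of 6 called. Of the CCT-binding cochaperones, 0 of 5 were called. Stip1, which bridges Hsp70 and Hsp90, was at 0.55 and 0.33, Pdcl3 at 0.31 and 0.25 and Pdcl at 0.078 and -0.088. Txndc9 was at -0.26 and -0.42, and Bag3 at -0.39 and -0.58, with a lowest adjusted p over the 5 genes of 0.148.

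**Figure D3:**
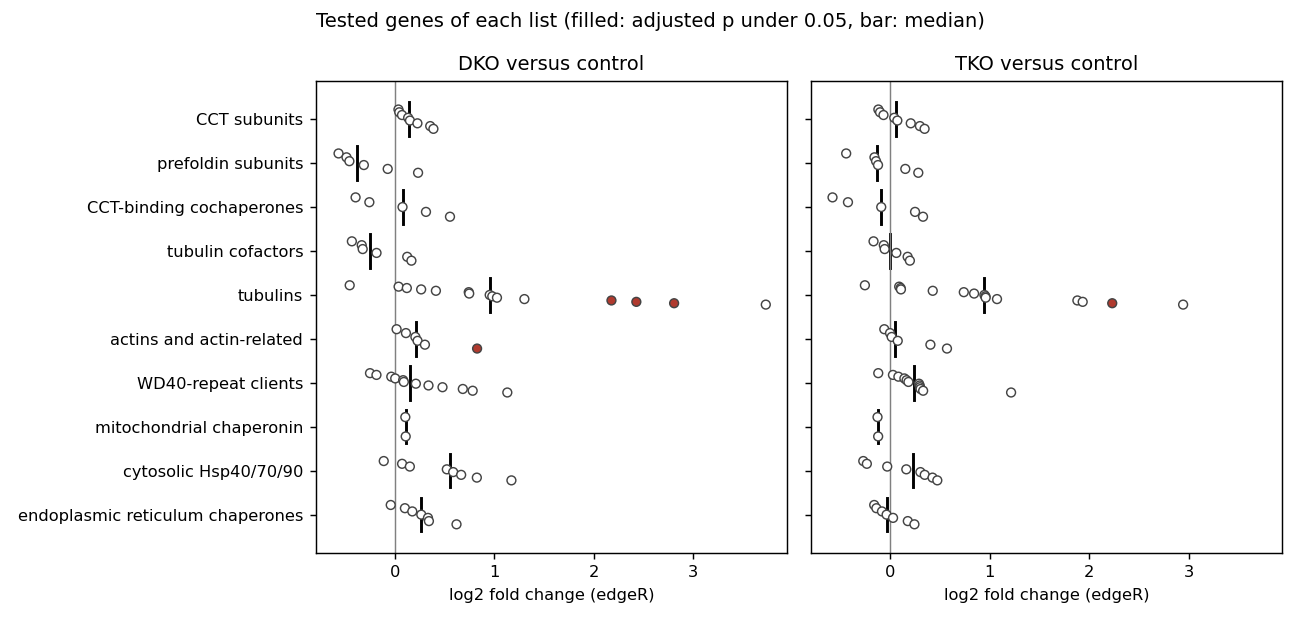
Each point is the edgeR log2 fold change of 1 tested gene, in rows by list, for DKO tumors (left) and TKO tumors (right) against the same 4 control livers, and filled points have an adjusted p under 0.05. The CCT points cluster near 0 with medians of 0.14 and 0.06, and the tubulin medians are 0.95 in both panels.

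Other folding machines were set beside CCT, in lists of few genes where edgeR called 2.42% of all genes in DKO tumors and 0.0864% in TKO tumors. The mitochondrial chaperonin pair Hspd1 and Hspe1 had log2 fold changes of 0.11 and 0.11 in DKO tumors and -0.13 and -0.12 in TKO tumors, and the CCT-like proteins Mkks and Bbs10 had 0.0098 and 0.0034, and -0.11 and -0.12. The cytosolic Hsp70, Hsp90 and Hsp40 genes had 0 of 8 called by edgeR, with a median of 0.55 in DKO tumors against 0.14 for CCT. In TKO tumors the median of these genes was 0.23, with 5 of 8 above 0, against 0.06 for CCT. The highest DKO values of the cytosolic genes were those of Hsp90aa1 (1.17, adjusted p = 0.0806), Hsph1 (0.82) and Hsp90ab1 (0.67, adjusted p = 0.0938), and the lowest those of Dnaja2 (-0.11), Dnaja1 (0.073) and Hspa4 (0.15). DESeq2, which called 10.4% of all genes in DKO tumors, called Hsp90aa1 and Hsp90ab1 there. For the endoplasmic reticulum chaperones 0 of 7 were called, from Hspa5 (0.62), Pdia4 (0.34) and Pdia6 (0.33) down to Pdia3 (0.18), Canx (0.10) and Calr (-0.041) in DKO tumors. The median of these 7 genes was 0.27 in DKO tumors and -0.034 in TKO tumors, where 3 of 7 were above 0. Among regulators, the heat shock factor Hsf1 was at 0.56 in DKO tumors (adjusted p = 0.0737 from edgeR) and Hsf2 at 0.29. Mycn was at 1.09, Mycl at 0.80 and Myc at -0.78 there, and of these 5 genes edgeR called 0 and DESeq2 called Hsf1 (adjusted p = 0.0282). The median of the 5 regulators was 0.56 in DKO tumors and 0.32 in TKO tumors.

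Within a group the 8 subunits tended to be high or low together. For each gene the deviation of log2 CPM (prior count 2) from its group mean was taken in every library. Control 2 was the lowest control liver for 7 of 8 subunits, DKO tumor 1 the lowest DKO tumor for 6, and TKO tumor 3 the lowest TKO tumor for 7, with mean deviations of -0.15, -0.18 and -0.27. The highest mean deviations were those of control 1 (0.12, the highest control liver for 5 of 8 subunits), DKO tumor 2 (0.10, for 5) and TKO tumor 1 (0.19, for 3). TKO tumor 4 (0.10) was the highest TKO tumor for the other 5 subunits. Control 2 had the lowest total count of all libraries, and DKO tumor 1 the highest albumin share (22.7%) and the lowest TMM factor (0.795). The part of these in the deviations was not tested. The Hsp90 pair Hsp90aa1 and Hsp90ab1 deviated, on average, by -0.42, -0.55 and -0.49 in the 3 low libraries and by 0.33, 0.40 and 0.51 in control 1, DKO tumor 2 and TKO tumor 1.

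**Figure D4:**
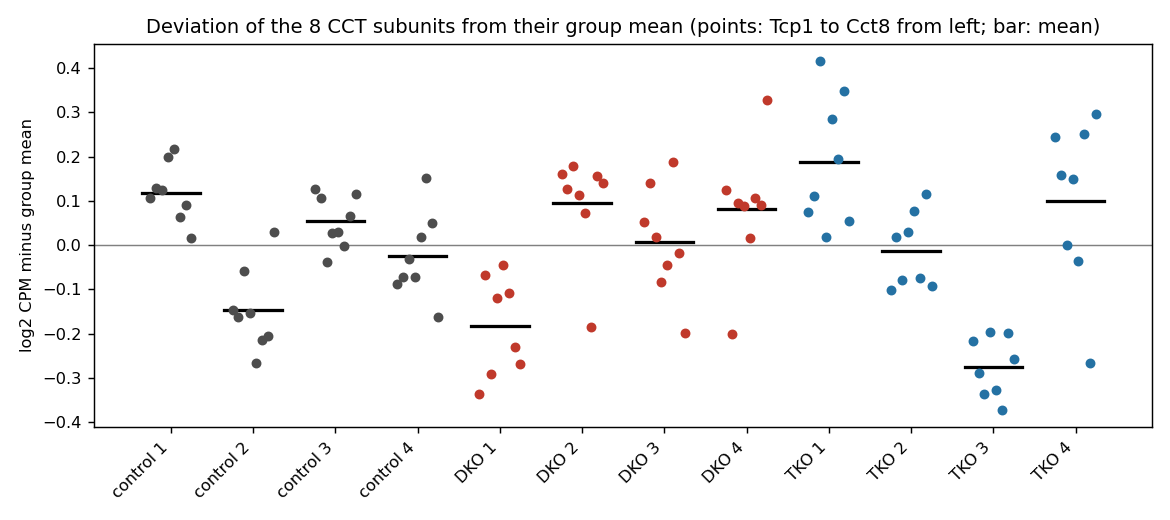
For each of 12 libraries the 8 points give the difference of each subunit's log2 CPM from its group mean, from Tcp1 at the left to Cct8 at the right, and the bar is their mean. Control 2, DKO 1 and TKO 3 lie low as sets, with means of -0.15, -0.18 and -0.27.

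Over the 12 libraries all 28 pairs of subunits had a positive Pearson r of these deviations, with a median of 0.58, from 0.22 for Cct7 with Cct8 to 0.81 for Tcp1 with Cct4. The r of a subunit with the mean of the other 7 ran from 0.56 (Cct8) and 0.60 (Cct7) to 0.82 (Tcp1) and 0.85 (Cct3). All points share library, depth and scaling, and these values are a description. For comparison, the r of 13874 other genes with the mean CCT deviation had a median of 0.012, and its 5th and 95th percentiles were -0.64 and 0.657. The r of Cct8, Cct7, Cct6a (0.62) and Cct2 (0.656) with the other 7 was below that 95th percentile. The 10 most alike were Lrrc59 (0.955), Gtf2e2 (0.955), Dnm1l (0.93), Coq10b (0.93), Gm10241 (0.92), Wdr12 (0.92), Ppid (0.92), Picalm (0.91), Rraga (0.91) and Acsl4 (0.91). Hsp90ab1 (r = 0.90) came 12th and Hsp90aa1 (r = 0.90) came 16th. By list the median r was 0.79 for the 8 cytosolic chaperones (0.63 to 0.90), 0.68 for Hspd1 and Hspe1, 0.56 for the proliferation markers, 0.40 for the tubulins and 0.073 for the prefoldin genes. The stellate cell markers had -0.32 and the hepatocyte markers -0.22. Tubb2a, the tubulin called in both tumor genotypes, had 0.23.

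The spread of a subunit between libraries of 1 group was modest. The median coefficient of variation over the 8 subunits was 9.55% in control livers, 11.8% in DKO tumors and 16.9% in TKO tumors, beside 15.3%, 15.8% and 19.0% for the 2112 other genes at 50 to 300 CPM. The widest were Cct3 (22.4%) and Cct7 (20.2%) in TKO tumors and Cct8 (19.7%) in DKO tumors. Counting error alone would give 1.94 to 3.29%, and the measured value was at least 2 times that in all but 2 of 24 subunits by group, Cct5 in DKO tumors (3.92% against 2.25%) and Cct3 in control livers (6.004% against 3.29%).

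Since the assembled ring holds its subunits in equal number, the balance of the 8 transcripts was compared on a per-length scale (CPM per kilobase of exon). Cct8 was the highest and Cct3 the lowest in each group, at 67.4 ± 5.32 and 34.7 ± 2.08 CPM per kb in control livers, 78.9 ± 15.6 and 44.4 ± 6.001 in DKO tumors, and 69.4 ± 11.5 and 44.1 ± 9.89 in TKO tumors (SD, n = 4). Their ratio was 1.94 in control livers, 1.78 in DKO and 1.57 in TKO tumors. In control livers the order ran from Cct8 through Cct6a, Tcp1, Cct5, Cct2, Cct4 and Cct7 to Cct3, and only Cct4 (52.5) and Cct7 (43.0) were neighbours whose 4 values did not overlap. In both tumor groups all neighbours in the order overlapped. The gene model of Cct6a has 1599 exon bases for 1596 coding bases, almost no untranslated part, so its per-length level may be set too high.

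As shares of the summed CPM per kb, Cct7 took 9.38 to 10.3% in control livers and 11.1 to 11.98% in DKO tumors, and Tcp1 took 13.4 to 14.7% and 11.5 to 13.4%, where the lowest control liver (13.428%) and the highest DKO tumor (13.426%) were almost level. The Cct3 share was 7.41 to 8.42% in control livers and 8.75 to 11.2% in TKO tumors. These 3 of 24 tests over the 8 subunits and 3 comparisons had no overlap between the groups, each with an exact permutation p = 0.0286, the smallest possible, unadjusted. Shares sum to 100%, so they are not independent of each other. The expression levels of 16.2% of all genes did not overlap between DKO tumors and control livers. This was 7.67% for TKO tumors against control livers and 4.87% between TKO and DKO tumors. These percentages are for levels and not for shares within a set. Between TKO and DKO tumors every share overlapped. The count of 3 was 7 without TKO tumor 4, which had the lowest Cct7 share of all libraries (8.76%), and 5 without control 4 or without DKO tumor 1. Each share is computed within its own library, so leaving out a library can only keep or raise this count.

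**Figure D5:**
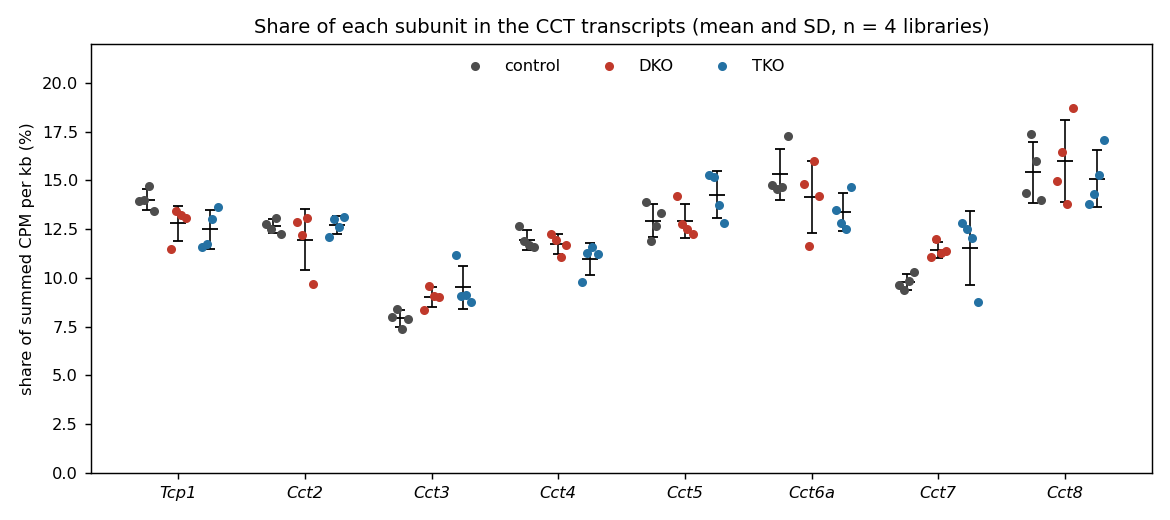
The share of each subunit in the summed CPM per kb of the 8 is plotted in percent for 4 libraries of each group, with mean and SD. In each group the Cct3 points lie lowest or nearly so, and the Cct7 points of DKO tumors (11.1 to 11.98%) lie above its control points (9.38 to 10.3%).

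The start regions were read because E2f7 and E2f8, targeted in both tumor genotypes, encode E2F repressors and because the subunits tended to vary together within groups. RefSeq windows on GRCm38.p6, from 250 bases before to 50 after a gene start, were held for 7 members in 9 windows. They were searched on both strands for TTTCCCGC, TTTGGCGC and TTTCGCGC (E2F sites), GAANNTTC (the heat shock element core), CACGTG (E-box), CCAAT and GGGCGG (GC box). An E2F site was present in 2 of 9 windows, those of Tcp1 and Cct3, against 1.84% of 32851 windows of all genes. CCAAT was in 4 of 9 (37.4% of all), GGGCGG in 8 of 9 (35.7%), GAANNTTC in 1 of 9 (7.86%) and CACGTG in 0 of 9 (7.15%). Cct2 and Cct5 each had 2 of the 9 windows. The windows of all genes were not matched to these in base composition, so no enrichment is read from the shares. The single GAANNTTC match was GAAGTTTC in Cct2, 42 bases before the downstream of its 2 starts. Shown here are the 250 bases before the start of the members with an E2F match and of Cct7, the member without overlap between DKO tumors and control livers, with E2F matches (Tcp1, Cct3) and CCAAT matches (Cct7, read as ATTGG) in capitals.
Tcp1: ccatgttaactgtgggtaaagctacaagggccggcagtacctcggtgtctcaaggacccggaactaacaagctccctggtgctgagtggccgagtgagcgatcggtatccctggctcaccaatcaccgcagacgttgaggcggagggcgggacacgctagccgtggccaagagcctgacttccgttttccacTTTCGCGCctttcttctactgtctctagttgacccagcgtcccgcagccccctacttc
Cct3: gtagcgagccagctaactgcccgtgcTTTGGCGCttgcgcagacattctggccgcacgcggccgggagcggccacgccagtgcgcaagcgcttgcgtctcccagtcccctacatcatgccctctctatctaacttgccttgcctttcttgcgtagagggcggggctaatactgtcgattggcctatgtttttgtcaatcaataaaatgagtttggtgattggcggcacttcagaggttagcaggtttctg
Cct7: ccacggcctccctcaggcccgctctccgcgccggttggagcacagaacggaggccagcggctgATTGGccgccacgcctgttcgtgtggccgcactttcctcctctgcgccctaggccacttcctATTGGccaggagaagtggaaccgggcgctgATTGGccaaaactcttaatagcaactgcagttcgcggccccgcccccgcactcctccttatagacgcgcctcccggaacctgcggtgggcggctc
These are chr17:12916079-12916328, chr3:88296885-88297134 and chr6:85451255-85451504 on GRCm38.p6, all on the plus strand, a build other than the mm9 of the counts. The E2F match began 58 bases before the start in Tcp1 and 224 before it in Cct3, and the CCAAT matches of Cct7 began 187, 125 and 95 bases before it. Of the carriers of an E2F match, Tcp1 had log2 fold changes of 0.037 in DKO and -0.10 in TKO tumors and Cct3 of 0.36 and 0.35, and neither passed the test. A match in letters is a description and not a binding site.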

How the data were processed

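Poly(A) RNA of 4 control livers, 4 DKO and 4 TKO tumors was sequenced on a SOLiD instrument in 40-base reads. The authors mapped the reads to mm9 with BWA and deposited raw counts per Entrez gene from FeatureCounts, without normalization. Tool versions, whether strand was used and how multiply mapped reads were handled are not given in the sources used here. Of 26301 identifiers, 24191 had a symbol (99.4% of counts). Coordinates are from GENCODE vM1 on mm9.

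All 12 libraries entered a single edgeR 4.0.16 fit (R 4.3.3) with TMM, filterByExpr (13882 genes kept) and quasi-likelihood F tests, adjusted over all genes by Benjamini-Hochberg at a threshold of 0.05. Single genes and shares were also given exact permutation tests (two-sided, 70 assignments). DESeq2 1.42.0 and limma 3.58.1 (voom with quality weights) were alternatives, beside other scalings, filters, a newer dispersion estimate, the 8 libraries compared, the replicate number as a block, an adjusted p of 0.1, shares without length, and leaving out each library; the pooled contrast of both tumor genotypes was added after seeing the data. The fits were tested on simulated data with planted changes larger than any subunit change here, so they do not show the power for changes of this size. No label names a batch. The descriptions add to each library a code of a letter and a number, some letters shared between groups, whose meaning is not given, and the codes were not used. Each library is labelled only as a separate liver or tumor, so p-values measure the spread between these samples. No libraries were alike enough to be 1 library deposited again.

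The members and the gene lists were chosen with earlier results of these data known. Named were the 8 members, of each list every called gene or otherwise the 3 highest and 3 lowest log2 fold changes (all of lists with 6 or fewer), and the 10 genes most like the CCT mean. The voom, DESeq2 and added-contrast calls, Tubb5, Tuba8, Gnb1 and Prom1 were named after their values were seen. Of 16 RefSeq pseudogene copies of the subunits, 0 were in the count table.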

Additional observations from a re-analysis of the deposited data

Results flagged for a closer look

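Dixon's test at 95% was applied to 48 groups of 4 libraries, the level and the share of each subunit in each group, and marked 4, where chance marks about 1 in 20. Cct3 was at 86.0 CPM in control 1, against 75.7 to 77.2 CPM in the other control livers. Cct7 was at 91.0 CPM in control 2, against 109 to 112 CPM in the others. The share of Cct3 in the summed CPM per kb was 11.2% in TKO tumor 1, against 8.75 to 9.12% in the other TKO tumors. The share of Cct6a was 17.3% in control 4, against 14.6 to 14.8% in the other control livers.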

How the results depend on the processing

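No subunit was called in any comparison under any alternative run, and the lowest adjusted p of a subunit was 0.105, 0.157 and 0.465 for DKO against control, TKO against control and TKO against DKO. Of 168 subunit values per comparison, 6, 7 and 17 changed sign, all of them small. Under total counts these were, in TKO against control, Tcp1 0.068, Cct4 0.089 and Cct6a 0.046, and Cct3 0.077 in TKO against DKO. Under voom they were Tcp1 -0.042 (DKO against control), Cct8 -0.032 (TKO against control), and Cct2 -0.022 and Cct3 0.021 (TKO against DKO). Cct2 in TKO against DKO was -0.0069 with DESeq2 and -0.0072 with its size factors or at least 10 counts in every library. Leaving out each library in turn gave ranges that crossed 0 for Tcp1 (-0.016 to 0.12) and Cct6a (-0.022 to 0.10) in DKO against control, Cct4 (-0.12 to 0.0026) and Cct8 (-0.073 to 0.12) in TKO against control, and Cct2 (-0.063 to 0.089), Cct3 (-0.16 to 0.094) and Cct5 (-0.046 to 0.15) in TKO against DKO.

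The pathway count for DKO (4) was 13 with DESeq2, 8 with the newer dispersion estimate, 2 with total counts, 7 with at least 10 counts, 9 with the 8 libraries compared, 14 with voom (13 higher, 1 lower), 12 at an adjusted p of 0.1 and 0 to 9 without 1 library. For TKO (1) it was 5 with DESeq2, 2 with the newer dispersion, total counts, no filter or 8 libraries, 4 with voom, 3 at 0.1 and 0 to 6 without 1 library. All genes called for DKO (336) were 1518 with DESeq2, 59 with total counts, 759 with 8 libraries, 1804 with voom, 1460 at 0.1 and 0 to 651 without 1 library (0 without control 2 or 3). For TKO (12) they were 507 with DESeq2, 20 with the newer dispersion, 22 without a filter, 97 with voom, 80 at 0.1 and 0 to 231 without 1 library, and 56 between genotypes with DESeq2. The number of shares without overlap (3) was 3 to 7, a count that leaving out a library can only keep or raise. The cause of the other shifts was not tested. With the replicate block the pathway counts were 7 and 0 and all genes 509 and 1. Same-numbered libraries come from different mice, and 5 of 12 such pairs had a correlation of deviations above 0.1 (-0.17 to 0.37). No differently numbered pairs were set beside them, so these values cannot decide whether the numbers pair libraries.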
